A study of Mus musculus with 4 samples.

Results

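Genes of lipid-handling macrophages were followed in single cells of the mouse carotid artery before and after wire injury. The set held 10 of the 31053 genes in the count tables. It was put together by name, from genes known in lipid-associated macrophages of other tissues: Trem2, Cd36, Cd9 and Gpnmb at the cell surface, Spp1, Lgals3, Apoe and Lpl among secreted proteins, and Fabp5 and Plin2 inside the cell. Earlier results of these data were known when the set was chosen. Wire injury strips the endothelium and stretches the vessel wall. It was made in the left carotid of male C57BL/6 mice that were 11 weeks old before injury, and the right carotid was left as the uninjured control. Arteries were taken before injury (day 0) and on days 3, 7 and 14, with the vessels of several mice pooled into 1 library per time point and thrombosed vessels left out. The arteries were digested with enzymes, dead cells were removed, and the 3′ ends of transcripts were counted in droplets with unique molecular identifiers (UMIs). No genetic change or drug is given for any of the 4 groups, and the mice were not on a high-fat diet.

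Macrophages that take up large amounts of lipid share a gene programme in fat tissue, atherosclerotic plaque, injured liver and the brain. Trem2, a receptor for lipids and lipoproteins that signals through the adaptor Tyrobp, is needed for much of this programme, and Spp1, Gpnmb, Cd9 and Fabp5 are often used to recognise such cells. Lipid enters through scavenger receptors such as Cd36 or after hydrolysis by Lpl, is carried by Fabp5, is stored in droplets coated by Plin2, and leaves the cell in part on Apoe.

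The 4 libraries held between 2672722 (day 0) and 27973418 (day 7) UMIs. Of 6161 barcodes, 5408 were kept as cells, 281, 1405, 2693 and 1029 from days 0, 3, 7 and 14. Cells were grouped without the 10 genes, and the groups were called "-like" classes by marker genes. Monocyte/macrophage-like cells numbered 4, 475, 815 and 173 on days 0, 3, 7 and 14, which was 1.42%, 33.8%, 30.3% and 16.8% of the cells of each day. All 22 monocyte/macrophage markers were seen in the class on days 3, 7 and 14, at a summed 30627, 26122 and 29738 CPM (UMIs of a gene scaled to 1000000 UMIs of the class and day). In these same cells the 11 fibroblast markers summed to 478, 918 and 956 CPM, the 14 dendritic markers to 319, 558 and 399 CPM, and the 5 erythroid markers to 627, 2379 and 9.64 CPM. Other cells with mostly macrophage markers, 43, 118 and 12 on those days, stayed unnamed. They formed a shallow cluster in which no macrophage marker led, and a cluster led by osteoclast markers such as Acp5 and Ocstamp. With 1 library per day there is no replicate and no p-value. All intervals are exact 95% intervals that cover counting error only, and a difference between days cannot be told apart from a difference between libraries.

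The libraries shared cell barcodes. The day 0 and day 3 libraries had 152 barcodes in common and the day 7 and day 14 libraries 64. In 214 of these the copy in one library held at least 8 times fewer UMIs than the other, and these lower copies were left out. They mattered most for Spp1 before injury: 24 of the 25 Spp1 UMIs of the day 0 library (96%) lay in lower copies of day 3 cells, as did 7 of its 28 Lgals3 UMIs (25%). On day 14, 65 of 764 Spp1 UMIs (8.51%) lay in lower copies of day 7 cells. The origin of the shared barcodes was not tested, and values with the copies kept are given where they differ.

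Trem2 and Spp1 carried the main contrast, so the 250 bases before their annotated transcription starts are shown from the RefSeq promoter table (GRCm38.p6). Both genes lie on the plus strand, Trem2 (ENSMUSG00000023992) at chr17:48346151-48346400 and Spp1 (ENSMUSG00000029304), for the more upstream of its listed starts, at chr5:104434861-104435110. Capitals mark matches to the letters searched.
Trem2: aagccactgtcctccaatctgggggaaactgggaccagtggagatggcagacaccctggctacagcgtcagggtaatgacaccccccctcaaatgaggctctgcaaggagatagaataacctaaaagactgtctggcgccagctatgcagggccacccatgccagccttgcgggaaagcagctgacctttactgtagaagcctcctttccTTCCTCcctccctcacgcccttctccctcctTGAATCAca
Spp1: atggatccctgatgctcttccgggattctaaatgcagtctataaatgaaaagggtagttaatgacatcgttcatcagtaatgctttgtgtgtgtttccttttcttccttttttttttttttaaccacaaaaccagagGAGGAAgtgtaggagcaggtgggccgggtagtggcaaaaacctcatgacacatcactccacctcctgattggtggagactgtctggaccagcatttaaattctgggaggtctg
In Trem2 the capitals are GAGGAA read on the other strand, the core that the myeloid factor PU.1 recognises, 40 bases before the start, and TGANTCA, the AP-1 motif, 9 bases before it. In Spp1 they are GAGGAA on the plus strand, 113 bases before the start. These letters are common: on either strand GAGGAA stood in 23.3% and TGANTCA in 6.75% of the 32851 mouse promoters of the same length. The other motifs searched were the E-box CACGTG (6.02% of promoters), the C/EBP motif TTNNGNAA (36.8%), the MAF motif TGCTGAC (3.81%) and the nuclear receptor site AGGTCA followed by the same letters after 1 base (DR1, 0.0335%) or 4 bases (DR4, 0.0152%). The table held 8 of the 10 genes with 11 starts, and 5 of the 8 had at least 1 match. The other listed start of Spp1, not shown, had no GAGGAA but 2 C/EBP matches, 156 and 15 bases before it. A match is a description of the letters and not a bound site.

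Among the receptors, Trem2 stayed level between days 3 and 7 and was higher on day 14. Its level in monocyte/macrophage-like cells was 303 CPM (287 to 319) on day 3, 305 CPM (293 to 316) on day 7 and 550 CPM (513 to 590) on day 14, from 1436, 2674 and 799 UMIs. Day 14 was thus 1.82 times day 3 (1.67 to 1.98), while day 7 was 1.01 times day 3 (0.944 to 1.07). The 4 cells of day 0 gave 1 Trem2 UMI, too few for a level.

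Cd36 (ENSMUSG00000002944), a scavenger receptor for oxidised lipoproteins and fatty acids, went the other way early on. It stood at 159 CPM (147 to 170) on day 3, 27.8 CPM (24.4 to 31.5) on day 7 and 58.5 CPM (46.8 to 72.4) on day 14. The day 7 level was 0.175 times that of day 3 (0.151 to 0.203), the largest difference of any of the 10 genes between these days, and day 14 lay between the other days.

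Cd9 (ENSMUSG00000030342), a tetraspanin that organises membrane domains, shared with Trem2 the higher level on day 14. Its levels were 277 CPM (262 to 292), 270 CPM (260 to 281) and 455 CPM (421 to 491) on days 3, 7 and 14, so that day 14 was 1.64 times day 3 (1.49 to 1.80). Gpnmb (ENSMUSG00000029816), a transmembrane glycoprotein of lysosome-rich cells, was the scarcest of the set in this class. It gave 52, 134 and 59 UMIs, or 11.0 CPM (8.19 to 14.4), 15.3 CPM (12.8 to 18.1) and 40.6 CPM (30.9 to 52.4). The day 14 value rested on 1 cell with 36 of the 59 UMIs. Without the cell richest in Gpnmb on each day the ratio of day 14 to day 3 went from 3.71 (2.51 to 5.49) to 1.79 (1.03 to 3.05), and that of day 14 to day 7 from 2.66 (1.93 to 3.64) to 1.14 (0.699 to 1.80). The share of cells with a Gpnmb UMI was 4.84%, 5.28% and 5.20%.

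Of the secreted proteins, Spp1 (osteopontin, a matrix protein and cytokine) was highest on day 3 and lower on each later day. It stood at 1572 CPM (1537 to 1608), 939 CPM (918 to 959) and 401 CPM (369 to 435), from 7458, 8238 and 582 UMIs. Day 7 was 0.597 times day 3 (0.579 to 0.616) and day 14 was 0.255 times day 3 (0.234 to 0.277). On day 14, 1 cell held 231 of the 582 UMIs. Without the cell richest in Spp1 on each day the levels were 1417, 807 and 246 CPM, and day 14 was 0.174 times day 3 (0.155 to 0.193). With the lower copies of shared barcodes kept, day 14 was 0.284 times day 3 and 0.504 times day 7, against 0.427 without them.

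Apoe (ENSMUSG00000002985), the apolipoprotein that macrophages load with cholesterol, showed the opposite order of days to Spp1. It stood at 8875 CPM (8791 to 8961) on day 3, 10291 CPM (10224 to 10359) on day 7 and 19939 CPM (19710 to 20170) on day 14. The day 14 level was 2.25 times that of day 3 (2.21 to 2.28). Lpl (ENSMUSG00000015568), which frees fatty acids from lipoproteins, dipped on day 7, with 293 CPM (277 to 308), 137 CPM (129 to 145) and 349 CPM (319 to 380) on the 3 days. Day 7 was 0.468 times day 3 (0.433 to 0.506) and day 14 was 2.54 times day 7 (2.29 to 2.82). Lgals3 (ENSMUSG00000050335), the galectin long used as a macrophage marker, varied least, at 1491, 1843 and 1674 CPM, with a ratio of day 14 to day 3 of 1.12 (1.07 to 1.18) that did not keep its direction under other processing.

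Both intracellular genes ended lower than they began. Fabp5 (ENSMUSG00000027533), a fatty acid carrier, stood at 260 CPM (246 to 275), 336 CPM (324 to 348) and 75.1 CPM (61.6 to 90.6), so that day 14 was 0.288 times day 3 (0.235 to 0.351). As a mean over cells of each cell's CPM, which gives shallow cells the same weight as deep ones, that ratio was 0.895. Plin2 (ENSMUSG00000028494), which coats lipid droplets, stood at 496 CPM (476 to 516), 411 CPM (397 to 424) and 302 CPM (275 to 332), and day 14 was 0.610 times day 3 (0.550 to 0.676).

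**Figure D1:**
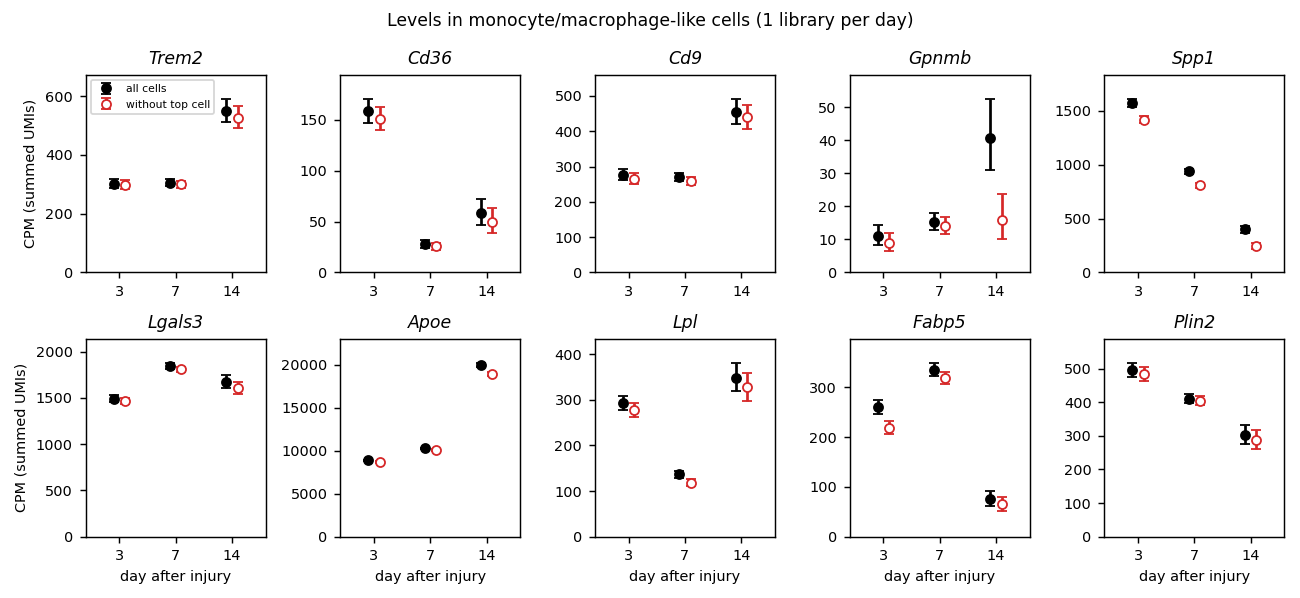
Levels of the 10 genes (vertical axes, CPM of summed UMIs, each starting at 0) in monocyte/macrophage-like cells on days 3, 7 and 14 after injury, 1 library per day, with exact 95% counting intervals. Filled points use all cells and open points leave out the cell richest in the gene; Spp1 goes from 1572 to 401 CPM and Trem2 from 303 to 550 CPM, while the day 14 value of Gpnmb goes from 40.6 to 15.9 CPM without that cell.

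The 10 genes thus did not move as a set. Between days 3 and 7, 0 of 10 were at least 2-fold higher, where 5.74% of all 11037 genes with enough UMIs were, and 2 (Lpl and Cd36) were at least 2-fold lower, where 4.54% were. Between days 3 and 14, 2 (Gpnmb and Apoe) were at least 2-fold higher against 6.03% of genes, and 3 (Spp1, Fabp5 and Cd36) lower against 9.66%. Between days 7 and 14, 3 (Gpnmb, Lpl and Cd36) were higher against 4.94%, and 2 (Spp1 and Fabp5) lower against 6.55%. The median log2 ratio of the 10 genes, with 10 CPM added, was -0.01, 0.21 and 0.78 in these comparisons, beside -0.08, -0.10 and -0.00 over all genes. The direction of the middle value changed with the processing, and the first value ranged from -0.29 to 0.025 over the alternatives.

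Across cell classes, Trem2, Cd36 and Apoe were far higher in monocyte/macrophage-like cells than in the next class. On day 3 Trem2 stood at 303 CPM there and at 24.1 CPM in the next class, dendritic-like cells. On days 7 and 14 the next classes held 8.08 CPM (neutrophil-like) and 7.13 CPM (NK-like, from 1 UMI). For Cd36 the next class stood at 9.13, 5.34 and 5.43 CPM on the 3 days, and for Apoe at 483, 856 and 2349 CPM. Among classes of at least 20 cells, 7, 7 and 6 of the 10 genes were highest in monocyte/macrophage-like cells on days 3, 7 and 14. With the lower copies of shared barcodes kept, which regrouped the cells, these counts were 6, 4 and 3. The intervals of Plin2 overlapped those of neutrophil-like cells on days 3 and 7, and those of Spp1 did so on day 7. In the 2 unnamed clusters with mostly macrophage markers, of 88 and 85 cells, Trem2 stood at 46.4 and 68.3 CPM and Spp1 at 110 and 123 CPM over all days.

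Outside macrophages Spp1 was carried in part by single cells in the smooth muscle-like and fibroblast-like classes, and was spread more evenly over neutrophil-like cells. The smooth muscle-like class held 1313 CPM on day 3, 705 CPM on day 7 and 0.779 CPM (1 UMI) on day 14. A UMI of Spp1 was seen in 41 of 100 and 21 of 61 of these cells on days 3 and 7, and 1 cell held 42.8% and 53.3% of the UMIs. Without that cell the levels were 763 and 347 CPM. In fibroblast-like cells Spp1 stood at 0.452 CPM (1 UMI), 230, 427 and 8.94 CPM on days 0, 3, 7 and 14, and at 65.1 and 264 CPM on days 3 and 7 without the richest cell. Neutrophil-like cells held 509 CPM on day 3 and 883 CPM on day 7, in 62 of 234 and 44 of 121 cells. The richest cell held 11.4% and 13.4%, and without it the levels were 454 and 776 CPM. On day 14, when there were no neutrophil-like cells, dendritic-like cells came next after macrophages with 48.8 CPM.

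Several genes of the set were higher in other classes. Gpnmb was highest in fibroblast-like cells on all 3 days after injury (31.2, 20.5 and 108 CPM), though on day 7 its interval overlapped that of macrophages. Cd9 was highest in neutrophil-like cells on days 3 and 7 (1479 and 1336 CPM, the latter overlapping endothelial-like cells) and in smooth muscle-like cells on day 14 (1368 CPM). Fabp5 was highest in dendritic-like cells on days 7 and 14 (913 and 336 CPM). On day 3 endothelial-like cells led with 1657 CPM, of which 1 cell gave 95.5%. Without it they held 122 CPM, below the 1406 CPM of dendritic-like cells.

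Fibroblast-like cells were the only class with at least 20 cells on all 4 days (198, 125, 214 and 496), and in them 4 of the genes were lower on days 3 and 7 than on days 0 and 14. Apoe stood at 2715, 366, 361 and 2349 CPM on days 0, 3, 7 and 14, Gpnmb at 120, 31.2, 20.5 and 108 CPM, Lpl at 132, 24.5, 79.5 and 441 CPM, and Cd9 at 921, 635, 551 and 721 CPM. Relative to day 0, Apoe on day 3 was 0.135 times as high (0.128 to 0.142) and on day 14 was 0.865 times (0.841 to 0.891). Lpl on day 14 was 3.33 times day 0 (2.96 to 3.76) and 18.0 times day 3 (15.2 to 21.5), was seen in 378 of 496 cells, and exceeded its level in macrophages (441 against 349 CPM). In smooth muscle-like cells Apoe stood at 23.4, 182 and 324 CPM on days 3, 7 and 14.

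**Figure D2:**
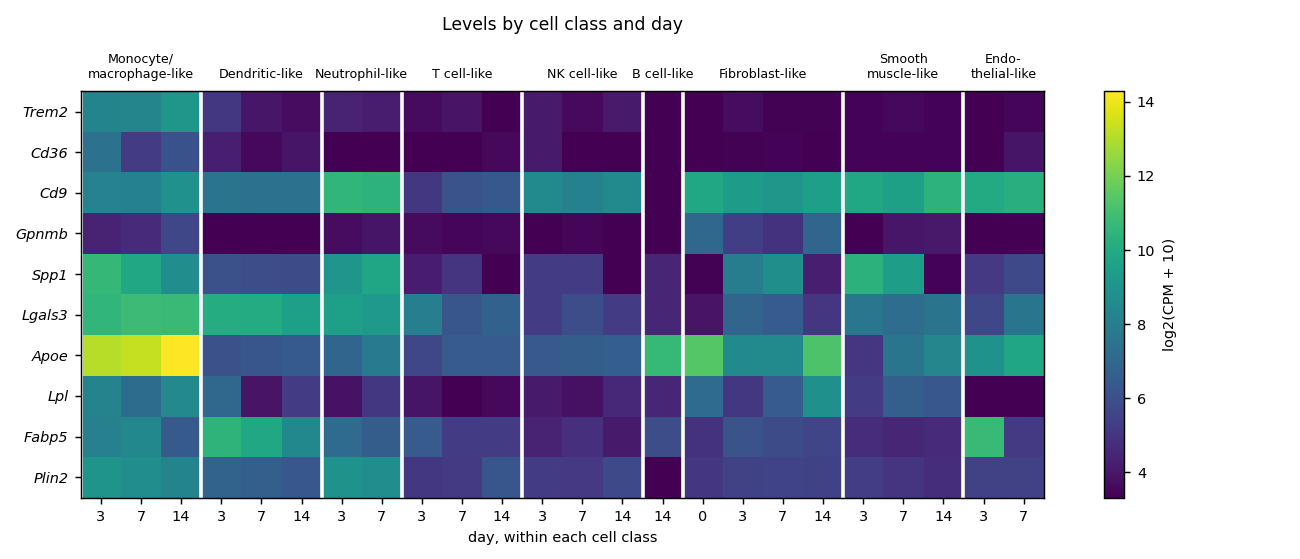
Levels of the 10 genes (rows) by cell class and day (columns), as log2(CPM + 10), for classes with at least 20 cells on that day, 1 library per day. Trem2 and Cd36 are far brighter in monocyte/macrophage-like cells than in any other class, whereas Cd9, Fabp5 and Gpnmb reach their highest values in other classes on most days.

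Within the monocyte/macrophage-like class, sub-clusters were made without the 10 genes. M0 (440 cells) was led by Hes1, Plac8 and Il1b and made up 11.4%, 45.9% and 6.94% of the class on days 3, 7 and 14. M1 (316 cells; Gdf15, Cd83, Ms4a7) went from 2.53% (1.31 to 4.37) on day 3 to 23.9% (21.0 to 27.0) on day 7 and 61.8% (54.2 to 69.1) on day 14. M2 (265 cells; Saa3, Fn1, Ltc4s) was 52.2% of day 3, 2.09% of day 7 and absent from the 173 cells of day 14. M3 (191 cells) was led by the lectin gene Mgl2 and by genes of antigen presentation such as H2-Eb1. It was shallow, with a median of 3018 UMIs per cell, and made up 27.2% of day 14. M4 (145 cells) was led by interferon-induced genes such as Ifit1, M5 (69 cells; 4.42%, 5.77% and 0.578%) by Mmp12, the macrophage elastase, and M6 (26 cells) by cell cycle genes. M7 held 15 cells and was left out of the order of levels, which covers sub-clusters of at least 20 cells. The borders between sub-clusters were not unique, since 50 random starts of the clustering gave 50 different partitions, of which the one with the highest quality score was used.

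The Trem2 and Spp1 maxima fell in different sub-clusters, and did so in 50 of the 50 partitions. These partitions divide the same cells and are not independent of each other. Trem2 (597 CPM) and Apoe (23560 CPM) were highest in M1, and 273 of the 316 M1 cells had a Trem2 UMI. Gpnmb was also highest there (30.1 CPM), with an interval that overlapped that of M5 (25.1 CPM). Apoe and Gpnmb each shared the sub-cluster of Trem2 in 47 of the 50 partitions. Spp1 (4362 CPM), Lgals3 (4159 CPM), Cd9 (1011 CPM) and Lpl (517 CPM) were highest in M5, where 57 of 69 cells had a Spp1 UMI. Lgals3, Cd9 and Lpl each shared the sub-cluster of Spp1 in 16 of the 50 partitions. In the remaining partitions no other gene of the set was highest where Spp1 was. The part of single cells in the Spp1 maximum of those partitions was not tested. In the partition used, the next Spp1 level was that of M6 (3025 CPM), where 1 of the 26 cells held 55.6% of the UMIs. M5 also expressed Trem2 (331 CPM, in 52 of 69 cells), but its Apoe level of 2558 CPM was near the lowest of any sub-cluster, 2391 CPM in M0. Cd36 (200 CPM) was highest in the day 3 sub-cluster M2, with 227 CPM (124 to 381) from 14 UMIs in the 15 cells of M7. Plin2 did not separate M5 (630 CPM) from M2 (581 CPM), nor Fabp5 M0 (428 CPM) from M2 (387 CPM), since their intervals overlapped. The spread from highest to lowest of the sub-clusters with at least 20 cells was 42.2-fold for Spp1, 22.3-fold for Cd36, 18.6-fold for Cd9, 9.85-fold for Apoe, 9.45-fold for Trem2 and 2.18-fold for Plin2. Since genes that vary with the 10 were used for clustering, these levels are a description.

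**Figure D3:**
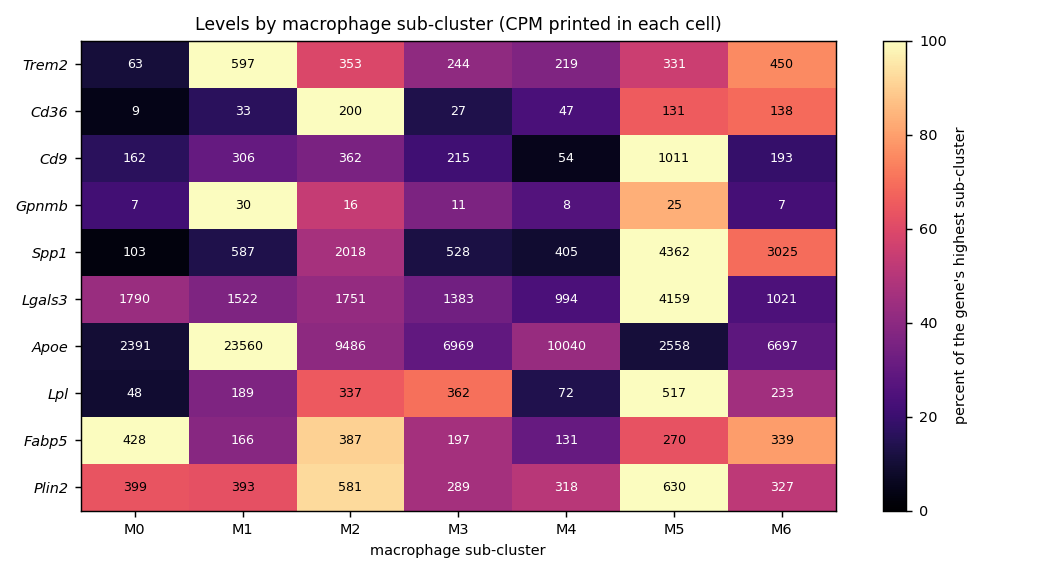
Levels of the 10 genes (rows) in the macrophage sub-clusters M0 to M6 (columns), coloured as percent of the gene's highest sub-cluster and with the CPM printed in each field. Trem2, Gpnmb and Apoe peak in M1, and Spp1, Lgals3, Cd9, Lpl and Plin2 in M5.

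Comparing days within sub-clusters separated the genes further. Each ratio was also computed without the cell richest in the gene on each day. From day 7 to day 14 the class-wide ratio of Trem2 was 1.81 (1.67 to 1.96), but within M1, with 195 and 107 cells, it was 1.11 (1.01 to 1.21), or 1.07 (0.977 to 1.17) without the richest cells. Within M3, with 88 and 47 cells, it was 0.630 (0.395 to 0.964). Apoe, 1.94 class-wide, was 1.02 (1.00 to 1.03) in M1, or 0.988 (0.973 to 1.00) without the richest cells, and 1.57 (1.48 to 1.66) in M3. Spp1 and Fabp5, in contrast, were lower on day 14 in both sub-clusters that could be compared. The Spp1 ratio was 0.306 (0.267 to 0.350) in M1, and in M3 it was 0.146 (0.0625 to 0.292), or 0.326 (0.103 to 0.795) without the richest cells, since 1 cell held 73.4% of the day 7 UMIs. The Fabp5 ratio was 0.229 in M1 and 0.579 in M3, the latter 0.120 (0.0143 to 0.446) from 2 and 84 UMIs without the richest cells. Lpl was higher on day 14 in both, at 2.05 in M1 and 2.86 in M3, where 1 cell held 83.3% of the day 7 UMIs and the ratio without the richest cells was 12.4 (8.20 to 19.1). Cd9 was higher on day 14 in M1 (2.00, 1.79 to 2.25), while in M3 its ratio was 1.01 (0.668 to 1.48).

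From day 3 to day 7, Spp1 within sub-clusters depended on single cells in size and, in M5, in direction. In M5 it was 4540 CPM on day 3 and 4374 CPM on day 7, from 21 and 47 cells, a ratio of 0.963 (0.901 to 1.03). However, 1 cell held 63.4% of the day 3 UMIs and 1 cell 27.0% of those of day 7, and without them the levels were 1873 and 3355 CPM, a ratio of 1.79 (1.62 to 1.99). Within M3 and M4 the ratio was 0.327 (0.277 to 0.386) and 0.184 (0.143 to 0.233), and without the richest cells, which held 73.4% and 60.8% of the day 7 UMIs, 0.147 (0.111 to 0.192) and 0.0861 (0.0578 to 0.124). Within M0, from 54 and 374 cells, it was 0.829 (0.617 to 1.13), or 0.964 (0.688 to 1.38) without the richest cells.

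In single cells, detection was compared after thinning each cell to 2000 UMIs, which kept 433, 760 and 134 monocyte/macrophage-like cells on days 3, 7 and 14 and left out 42, 55 and 39 shallower ones. Spp1 was then seen in 39.0% (34.4 to 43.8), 23.9% (21.0 to 27.1) and 22.4% (15.6 to 30.4) of cells, and Trem2 in 30.3% (26.0 to 34.8), 27.1% (24.0 to 30.4) and 47.0% (38.3 to 55.8). Both genes were seen together in 15.7% (12.4 to 19.5), 9.61% (7.60 to 11.9) and 12.7% (7.57 to 19.5). Without thinning, both were seen in 36.2%, 28.6% and 26.6%. In T cell-like cells thinned in the same way, Spp1 was seen in 1.69%, 5.45% and 0% and Trem2 in 0%, 0.909% and 0%. The pair was seen in 1 of 330 of these cells on day 7 and in none on the other days. Whether these UMIs were free RNA or came from the T cell-like cells themselves was not tested. Median UMIs before thinning were 8052, 9790 and 7649 in macrophages and 5479, 5543 and 5062 in T cell-like cells. On day 0, 1 of 3 macrophages of this depth had Trem2 and 0 had Spp1.

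Detection of Lpl, Cd36, Plin2 and Fabp5 followed the order of their levels by day. Lpl was seen in 21.9%, 8.29% and 28.4% of macrophages, Cd36 in 15.0%, 3.03% and 8.21%, Cd9 in 24.7%, 24.9% and 40.3%, and Plin2 in 50.6%, 42.8% and 35.1%. Fabp5 was seen in 16.6%, 21.2% and 8.96%. Apoe was seen in 82.7%, 78.9% and 86.6% and Lgals3 in 79.0%, 79.2% and 65.7%. Both of these abundant transcripts were also seen in T cell-like cells, in 6.78%, 15.5% and 15.0% for Apoe and 30.5%, 13.3% and 12.5% for Lgals3.

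On days 3 and 7 Trem2 and Spp1 were detected in the same macrophage somewhat more often than their separate shares give. Both were seen in 68 cells on day 3, where 51.1 were expected, in 73 on day 7 (49.3 expected) and in 17 on day 14 (14.1 expected). The ratios were 1.33, 1.48 and 1.21. When at least 2 UMIs of each gene were required, the day 14 ratio was 0.739, so its direction depended on the processing. With the expected counts made within each sub-cluster they were 1.20, 1.10 and 1.15, so that on day 7 most of the excess lay between sub-clusters. Of the cells with Trem2, 51.9%, 35.4% and 27.0% also had Spp1.

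On each day the ratio was higher for Spp1 with Cd9 than for Spp1 with Trem2. The ratio of observed to expected cells was 1.56, 1.75 and 1.57 for Spp1 and Cd9, and 1.40, 1.36 and 1.38 within sub-clusters. For Spp1 and Lpl it was 1.46, 2.32 and 1.29. The highest ratio of any pair with at least 5 expected cells was that of Spp1 and Cd36 on day 7, at 2.72 from 15 cells. Trem2 and Fabp5 had the lowest ratio on days 7 and 14, at 0.871 and 0.709, the latter from 4 cells where 5.64 were expected, and 0.964 on day 3, when Cd9 and Apoe were lowest at 0.836. Within sub-clusters the ratio of Trem2 and Fabp5 was 1.07, 1.01 and 0.663, so that on days 3 and 7 it was no longer below 1. Of pairs with at least 5 expected cells, 32 of 38, 31 of 37 and 16 of 27 were above 1 on days 3, 7 and 14, with median ratios of 1.11, 1.14 and 1.04. With the principal components rounded before clustering, 46.4% of pairs were above 1 on day 14 and the median was 0.978.

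**Figure D4:**
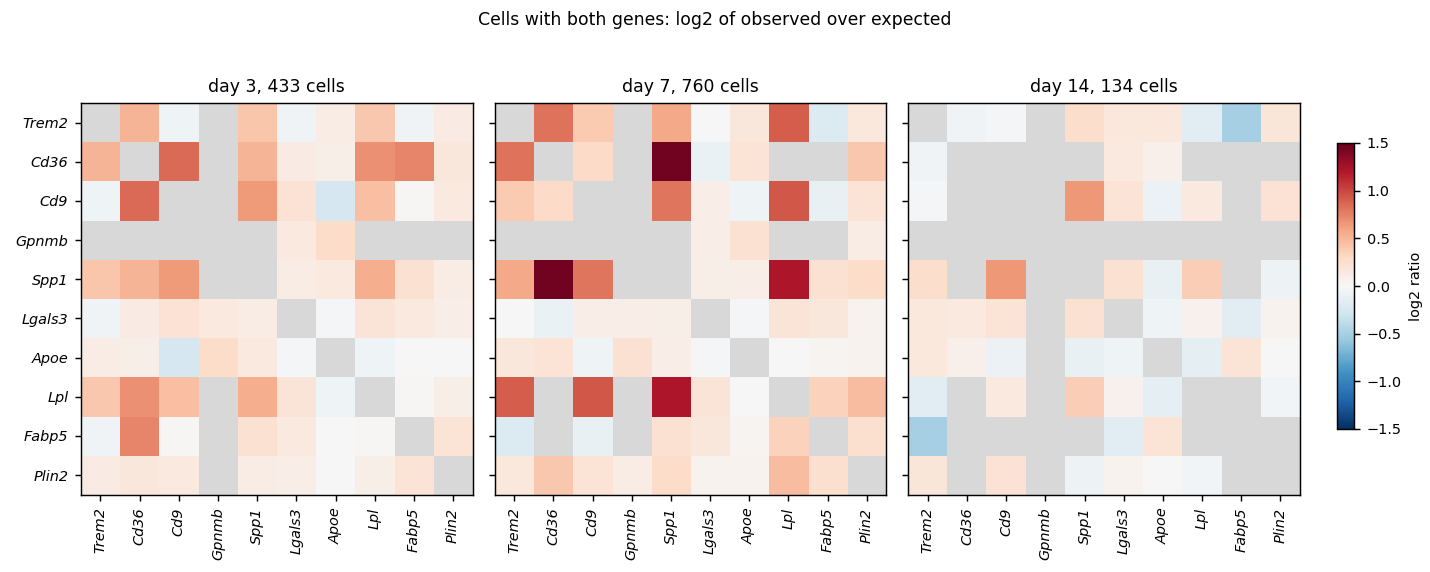
Observed over expected number of monocyte/macrophage-like cells with both genes of a pair, as log2, after thinning to 2000 UMIs, for days 3, 7 and 14 (433, 760 and 134 cells). Positive values mean that a pair was seen together more often than the separate shares give; Spp1 with Cd9 is positive on each day (ratios 1.56, 1.75 and 1.57) and Trem2 with Fabp5 negative (0.964, 0.871 and 0.709).

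Cells with both genes, with Trem2 only, with Spp1 only and with neither differed in the rest of the set. On day 7 Apoe stood at 18000, 16831, 8550 and 5104 CPM in these 4 kinds of cell, and C1qa, the complement gene of mature macrophages, at 3877, 3421, 1688 and 1093 CPM. C1qa stood at 2434, 2540, 1629 and 1092 CPM on day 3 and at 3353, 4978, 4308 and 2845 CPM on day 14. The C1qa intervals of cells with both genes and of cells with Trem2 only overlapped on days 3 and 7. On day 14 cells with both genes were not the highest in C1qa. Plac8, a gene of freshly recruited monocytes, showed the opposite order on day 7, with 54.8, 639, 899 and 1675 CPM, but was not graded in this way on day 3 (368, 571, 381 and 813 CPM) or day 14 (118, 196, 0 and 379 CPM, the third from 13 cells). Cd9 followed Spp1 instead, with 384, 248, 440 and 120 CPM. Lpl was highest in cells with both on days 3 (603, 135, 337 and 154 CPM) and 7 (288, 63.9, 161 and 37.1 CPM). On day 14 this order was gone, with 206, 207, 308 and 448 CPM from 7 to 52 UMIs. Before thinning, cells with both genes held a median of 12680 UMIs on day 3 and 15602 on day 7, against 7328 and 9242 in cells with neither, and the part of this depth in the differences was not tested.

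Cells with many of the 10 genes at once were few, though above what independent detection gives. At least 6 genes were seen in 55 cells (12.7%) on day 3, 57 (7.50%) on day 7 and 14 (10.4%) on day 14, where independence gives 7.15%, 2.48% and 5.57%. On day 3, 41 of the 55 lay in M2, which held 235 of all 433 cells. On day 7, 25 of the 57 lay in M1, which held 188 of all 760 cells, and 13 in M5. Their median depth before thinning was 11173, 16247 and 13987.5 UMIs, against 8837.5, 9917 and 9423 in the other macrophages. All 10 genes were seen together in 1 cell, of M3 on day 3, and 9 of 10 in 2 cells of M1 on day 14, which lacked Spp1 and Lpl, respectively.

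**Figure D5:**
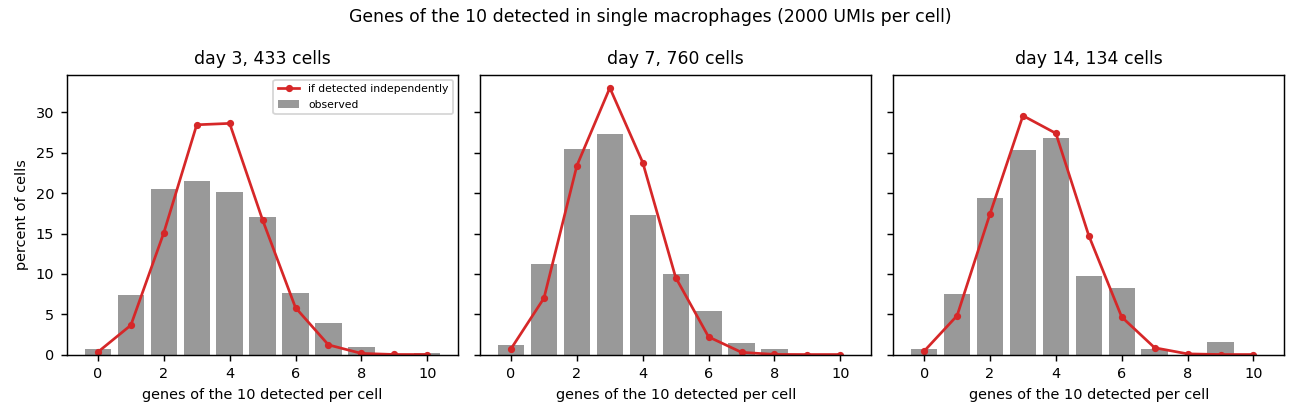
Percent of monocyte/macrophage-like cells (vertical axis) by the number of the 10 genes detected per cell after thinning to 2000 UMIs (horizontal axis), for days 3, 7 and 14. Grey bars are the observed shares and the red line gives what independent detection of the 10 genes would give; at least 6 genes were seen in 12.7%, 7.50% and 10.4% of cells, above the line's 7.15%, 2.48% and 5.57%.

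The genes most like Trem2 and Spp1 differed. Likeness was Pearson's r of log2(CPM + 10) over 11593 genes, given as a description because the sums share libraries. Over 24 class-by-day sums Trem2 was most like Fcrls (0.98), C1qc (0.97), Kcnk13 (0.97), Tlr8 (0.97) and Ms4a7 (0.96), and Spp1 most like Hmox1 (0.83), Tpcn2 (0.79), Plaur (0.78), Ell2 (0.77) and Fhl3 (0.76). C1qc and Ms4a7 were themselves markers used to name the monocyte/macrophage-like class. Of the set, Cd36 (0.91) was nearest to Trem2 and Plin2 (0.62) to Spp1 over these 24 sums. Over 12 sub-cluster-by-day sums of macrophages, Trem2 was nearest to Cd63 (0.95), Anxa5 (0.95), Dctn6 (0.93), Tbc1d9b (0.93) and Tnfsf12 (0.92), and Spp1 to Fam78b (0.96), Ctsl (0.95), Anxa1 (0.94), Eif4g2 (0.94) and Anxa4 (0.93). Within the set, Apoe (0.73) and Lpl (0.66) were nearest to Trem2 over these 12 sums and Plin2 (0.83) and Cd36 (0.76) to Spp1. Trem2 and Spp1 had an r of 0.52 over classes and 0.54 over sub-clusters.

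Genes that act with the set were compared between days 3 and 14 in the same class. The lists had also been chosen by name, with earlier results of these data known. Of 12 genes of Trem2 signalling, 1 was at least 2-fold higher (Pik3ap1, 2.72) and 2 lower (Ms4a4a, 0.275, and Ms4a6d, 0.396), where 6.03% of all genes were higher and 9.66% lower. Tyrobp, the adaptor, stood at 1680, 1834 and 1497 CPM on days 3, 7 and 14. Of 8 Spp1 receptors, 0 were higher and 1 was lower, Cd44, at 0.425 (0.384 to 0.470). The median log2 ratio of the 2 lists was -0.24 and -0.09, beside -0.10 over all genes.

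Of 25 lysosomal and phagocyte genes, 4 were higher, among them the fatty acid carrier Fabp4 (11.4, from 10 and 35 UMIs) and the proton channel Hvcn1 (3.53), and 2 were lower, the protease Ctsl (0.344) and Lgals1 (0.435). These counts, and those of the next lists, stand beside the same 6.03% of all genes higher and 9.66% lower. Of 22 genes of lipid uptake, storage and efflux, 2 were higher and 5 lower. Mylip, which marks the LDL receptor for degradation, was 5.30 times higher (4.07 to 6.94) and the lipase inhibitor Hilpda 2.50 times. The scavenger receptor Msr1 was at 0.162 (0.126 to 0.206) of its day 3 level, and Apoc1 and Apoc2 at 0.181 and 0.363, from 2 UMIs each on day 14. Of 15 lipid-sensing and related transcription factors, 2 were higher (Bhlhe41, 9.80, and Pparg, 3.27) and 4 lower, among them Tfec (0.103), Rxra (0.366) and Maf (0.367). The medians of the 3 lists were 0.30, -0.07 and -0.11.

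The lists named for resident macrophages and for inflammation moved more than the set itself. Genes of both lists, unlike those of the other lists, were not left out of the clustering. Of 8 resident macrophage genes, 6 were at least 2-fold lower on day 14 than on day 3 and 0 higher, where 9.66% and 6.03% of all genes were. Cbr2 stood at 0.174 (0.132 to 0.227) and F13a1 at 0.256 of its day 3 level, and Lyve1 gave 29 UMIs on day 3 and 0 on day 14. Cbr2 and F13a1 were also among the leading genes of M2, which was 52.2% of the class on day 3 and absent on day 14. The part of M2 in the lower levels of this list was not tested. On day 7 all 8 were at least 2-fold lower than on day 3, as were 4.54% of all genes. Of 8 inflammatory genes, 6 were higher on day 14, led by Ccl4 (7.13), Ccl3 (6.23) and Tnf (5.20), and 1 was lower (Clec4e, 0.438). On day 7, 8 of 10 were at least 2-fold higher than on day 3, as were 5.74% of all genes. The median log2 ratios on day 14 were -1.07 and 1.94. Erythroid markers in the same cells went from 627 CPM on day 3 to 9.64 CPM on day 14, and the part of other cells' RNA in these differences was not tested.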

How the data were processed

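Single-cell libraries from carotid arteries at 4 time points were used, 1 per time point. The authors deposited raw counts of UMIs per gene and cell barcode, made with Cell Ranger. The file headers give version 3.0.2. The genome build is written in the methods with a human name and is not given otherwise in the sources used here, so no coordinates were taken from the files.

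Barcodes with under 200 genes or over 20% mitochondrial UMIs (453) were removed. So were the lower copies of shared barcodes (214) and the 106 highest doublet scores from Scrublet at 0.8% per 1000 barcodes, since its own threshold marked 17 of 6161. Cells were clustered with scanpy 1.11.5 and leidenalg 0.10.2 (2000 variable genes, 30 principal components, 15 neighbours, resolution 1), and mitochondrial share was regressed out, as in the study. The variable genes left out the 10 genes and the listed genes, except the resident macrophage and inflammatory lists, which were kept. A cluster took a class name from at least 3 markers. It stayed unnamed where more markers of another class led it, or where it was shallow and no marker of its class led. Clusters of at least 60 cells that stayed unnamed were split once at resolution 0.6, and 54 of 99 cycling cells took the class of at least 60% of their neighbours. Macrophages were sub-clustered at resolution 0.6 on principal components rounded to 4 decimals, keeping the partition of highest quality from 50 random starts.

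UMIs were summed per class and day and scaled to CPM. Intervals are exact (Poisson for levels, conditional binomial for ratios, Clopper-Pearson for shares) at 95%, from scipy 1.17.1. Ratios needed 20 cells on each day and, for counts over genes, 20 UMIs in both sums together. The functions were tested on simulated data. All 10 genes are named. From each list the up to 3 largest folds in each direction between days 3 and 14 are named, with Tyrobp, and for Trem2 and Spp1 the 5 genes most like them with at least 200 UMIs. One gene that this rule names is not reported here. The 10 genes and the lists were chosen with earlier results of these data known. Alternatives covered clustering, filters, thinning to 1000 UMIs, detection at 2 UMIs, added CPM and the mean over cells. Promoter sequences came from the RefSeq table of GRCm38.p6.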

Additional observations from a re-analysis of the deposited data

Results flagged for a closer look

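In 3 genes, monocyte/macrophage-like cells and fibroblast-like or smooth muscle-like cells went at least 1.5-fold in opposite directions between the same days. Lpl on day 7 was 0.468 times day 3 in monocyte/macrophage-like cells, but 3.25 times in fibroblast-like cells and 3.15 times in smooth muscle-like cells. Spp1 on day 7 was 0.597 times day 3 in monocyte/macrophage-like cells and 1.86 times in fibroblast-like cells, where 1 cell held 72.7% of the day 3 UMIs and 39.4% of those of day 7. Trem2 on day 14 was 1.82 times day 3 in monocyte/macrophage-like cells and 0.154 times in fibroblast-like cells, the latter from 16 and 4 UMIs. With 1 library per day, none of these differences between classes was tested.

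The lower copies of shared barcodes, which were left out of all comparisons, also held UMIs of the set. In the day 0 library they held 24 UMIs of Spp1, 7 of Lgals3 and 6 of Fabp5, and in the day 14 library 65 UMIs of Spp1. In the day 3 library they held 242 UMIs of Apoe, 73 of Cd9 and 9 of Gpnmb. These were 0.523%, 0.740% and 3.73% of that library's UMIs of the 3 genes. The number of UMIs in the higher copy of the same barcode was 96.6 to 181 times larger for the 48 day 0 copies and 70.7 to 110 times larger for the 62 day 14 copies. For the 104 day 3 copies it was 18.2 to 32.7 times larger.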

How the results depend on the processing

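Over 12 alternatives each, the ratio of day 14 to day 3 stayed between 0.144 and 0.284 for Spp1, 1.54 and 2.21 for Trem2 and 1.88 and 2.86 for Apoe. Of the values for whole comparisons, 195 moved by less than their counting interval or by less than 1.5 times and 29 moved further. Another 2 changed sign, which was counted only where the main interval left out no difference. Values whose interval held no difference could change sign without being counted so, as the day 14 ratio of Trem2 and Spp1 did. The cause was not tested unless the alternative itself is the cause.

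The median log2 ratio of the 10 genes for day 14 against day 3 (0.21) was -0.0784 as a mean over cells of each cell's CPM, -0.00716 with cells thinned to 1000 UMIs, 0.0623 with each library clustered on its own and 0.0679 with the 10 genes kept for clustering. For day 7 against day 3 it was -0.29 as a mean over cells. For day 14 against day 7 (0.78) it was 0.43 without the richest cell and 0.48 with 50 CPM added. The number of genes at least 2-fold higher on day 14 than day 3 (2) was 1 with each library clustered on its own and 1 without the richest cell, and the number lower (3) was 1 as a mean over cells. Against day 7, the number higher (3) was 1 without the richest cell and 5 at 1000 UMIs, and the number lower (2) was 1 with the lower copies kept and 1 as a mean over cells.

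The share of macrophages with both Trem2 and Spp1 follows depth by construction: on days 3, 7 and 14 it was 8.03%, 4.00% and 3.40% at 1000 UMIs, 36.2%, 28.6% and 26.6% without thinning, and 5.77%, 1.84% and 2.24% when 2 UMIs were required. The observed-to-expected ratio was 1.83 on day 3 when 2 UMIs were required 1.10 on day 7 within sub-clusters and 0.739 on day 14 when 2 UMIs were required. The number of genes highest in monocyte/macrophage-like cells on day 7 (7) was 4 with the lower copies kept, 3 as a mean over cells and 4 at 1000 UMIs, and on day 14 (6) it was 3 with the copies kept. The number of genes highest in the sub-cluster where Spp1 peaked (5) was 3 at a sub-cluster resolution of 1 and 1 at 0.4.

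Among single ratios, Gpnmb on day 7 to day 3 was 0.659 as a mean over cells. Lgals3 on day 14 to day 3 was 0.997 with each library clustered on its own, 0.925 as a mean over cells and 0.932 at 1000 UMIs, and Lpl was 0.970 with the 10 genes kept for clustering and 0.969 as a mean over cells. Alternatives chosen after seeing the data were keeping the lower copies, adding the unnamed clusters, leaving out the shallow sub-cluster, leaving out the richest cell (in the class and within sub-clusters), rounding the principal components before clustering and the 50 random starts of the sub-clustering. No paired analysis was possible because each time point is 1 library. Depth limits Gpnmb, with 52 to 134 UMIs per day, and all of day 0, with 4 macrophages.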

Other observations

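In 5 cells of day 7, Ctsk and Acp5, proteases and phosphatases of bone-resorbing osteoclasts, each stood at 1000 CPM or more, a count chosen after the values were seen. These cells held 2290 UMIs of Ctsk, 1312 of Acp5, 992 of Mmp9 and 183 of Atp6v0d2, with 225 of Lgals3, 31 of Spp1, 2 of Trem2 and 0 of Gpnmb. Of the other osteoclast markers measured they held 75 UMIs of Ocstamp, 45 of Dcstamp and 0 of Calcr. Their median depth was only 1400 UMIs, at which very few UMIs meet the limit, and single cells gave much of the sums. In the unnamed cluster of 85 cells, over all days, 1 cell held 64.8% of 2282 Ctsk UMIs. The richest cell there held 54.4% of 1337 Acp5 UMIs and 71.6% of 989 Mmp9 UMIs. No such cell was seen on days 0 or 3, and 1 fibroblast-like cell met the same limit on day 14.

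On day 14, all 17 Trem2 UMIs of the 18 endothelial-like cells lay in 1 cell, as did 92 of their 93 Lgals3 UMIs in 1 cell and 363 of their 423 Apoe UMIs in 1 cell.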
